A study of Mus musculus with 6 samples.

Results

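The 5 transcripts described here belong to the class II antigen presentation pathway of the mouse: H2-Aa (ENSMUST00000040655_at), H2-Ab1 (ENSMUST00000040828_at), H2-Eb1 (ENSMUST00000074557_at), Cd74 (ENSMUST00000050487_at) and Ciita (ENSMUST00000023147_at). They were taken by identifier from a table of 81690 Ensembl transcripts, in which all 5 were found, and their gene names came with the list of identifiers. All 6 arrays came from adherent resident peritoneal macrophages of female C57BL/6J mice aged 8 to 12 weeks, with cells of 2 to 4 animals pooled in each of 3 experiments. In each experiment 1 well received vehicle (PBS) and 1 well received 25 µg/mL human LDL oxidized with copper sulfate (oxLDL), both for 24 h, so vehicle and oxLDL arrays with the same number share a pool of cells. The vehicle arrays carry the label unstim. Each value is a log2 transcript value from the Affymetrix Mouse Exon 1.0 ST array, and values are compared between arrays for the same transcript only, since probes of different transcripts differ in brightness. The identity of the cells was not checked against marker genes, because 0 of the transcript identifiers were found in the reference gene tables.

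MHC class II molecules are pairs of an alpha and a beta chain that carry peptides from engulfed material to the cell surface and show them to CD4+ T cells. H2-Aa and H2-Ab1 encode the alpha and beta chains of the I-A molecule, and H2-Eb1 encodes the beta chain of I-E. C57BL/6 mice lack a working gene for the I-E alpha chain, so their I-A molecule is the class II molecule at the surface. Cd74 encodes the invariant chain, which escorts new class II molecules to the endosome and keeps their groove covered until peptide is loaded. Ciita is the coactivator that switches the class II genes on. It does not bind DNA itself but joins the RFX, CREB and NF-Y factors that sit on short elements called the X and Y boxes, and interferon gamma is its best known inducer. In the peritoneal cavity the abundant large macrophages carry little class II at their surface, whereas the small macrophages, dendritic cells and B cells carry much. Before treatment the wells were washed to keep adherent cells, a step that depletes B cells and other cells that do not stick, and the makeup of the cells that remained was not examined here. In RNA from a whole well, fewer cells of a class II-rich type and less class II RNA per cell cannot be told apart.

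The shared promoter elements through which Ciita acts are shown for H2-Aa and H2-Eb1, the 2 of the 5 genes that matched the RefSeq promoter table (GRCm38.p6). H2-Ab1, Cd74 and Ciita did not match. Each sequence is the 250 bases before the gene's start, 5′ to 3′ on the gene's strand, at chr17:34287824-34288073 on the minus strand for H2-Aa and at chr17:34305617-34305866 on the plus strand for H2-Eb1. Capitals mark matches to the X box letters CTNGCAAC, the Y box letters CTGATTGG and the cyclic AMP response element TGACGTCA, which were searched on both strands and do not overlap each other here.
H2-Aa: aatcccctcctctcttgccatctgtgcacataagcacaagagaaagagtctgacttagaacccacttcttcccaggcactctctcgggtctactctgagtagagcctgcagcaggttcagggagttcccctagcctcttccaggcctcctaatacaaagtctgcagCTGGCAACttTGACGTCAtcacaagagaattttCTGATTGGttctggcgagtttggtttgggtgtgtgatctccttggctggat
H2-Eb1: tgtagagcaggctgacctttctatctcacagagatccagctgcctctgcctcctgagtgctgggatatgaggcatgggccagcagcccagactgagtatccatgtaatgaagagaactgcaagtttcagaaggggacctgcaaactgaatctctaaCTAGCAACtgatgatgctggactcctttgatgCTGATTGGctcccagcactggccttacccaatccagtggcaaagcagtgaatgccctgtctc

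In H2-Aa the X box letters began 84 bases before the gene's start, the cyclic AMP response element 74 bases and the Y box letters 51 bases before it. In H2-Eb1 the X box letters began 94 bases and the Y box letters 62 bases before the start. Among 32851 promoter windows of the same length, 2.84% held the X box letters, 3.83% the Y box letters, 1.55% the cyclic AMP response element, and 0.155% both the X and the Y box letters. The letters were chosen with these 2 sequences known, so the matches are a description and no test.

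After 24 h with oxLDL, none of the 5 transcripts changed by as much as 2-fold on average. The I-A chains, the I-E beta chain and the invariant chain were lower on the oxLDL array in all 3 experiments, by 1.54-fold on average for H2-Ab1, 1.31-fold for H2-Aa, 1.29-fold for H2-Eb1 and 1.16-fold for Cd74. Ciita stood at 0.95 of its vehicle level, and the direction of its difference varied between experiments. For all 5 transcripts the range over the oxLDL arrays exceeded the mean difference between the groups, and for all but H2-Ab1 so did the range over the vehicle arrays. The 5 transcripts also varied together from experiment to experiment. These patterns can be seen in the plot of the values on each array.

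**Figure D1:**
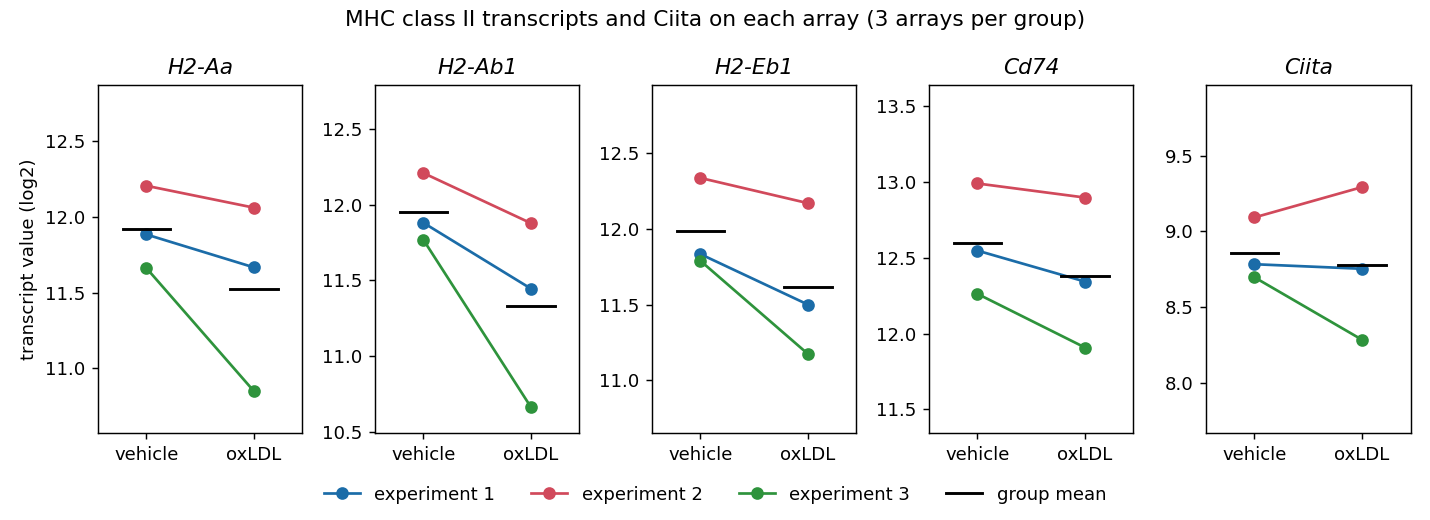
Transcript value (log2) of H2-Aa, H2-Ab1, H2-Eb1, Cd74 and Ciita on the vehicle and oxLDL arrays, with a line joining the 2 arrays of each experiment and a black bar at each group mean (3 arrays per group). Each panel spans the same height of the log2 scale, centred on its own transcript. Experiment 2 lies highest and experiment 3 lowest in every panel, and 14 of the 15 lines slope downward.

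For H2-Ab1, the I-A beta chain, the values were 11.88, 12.21 and 11.77 with vehicle in experiments 1, 2 and 3, and 11.45, 11.88 and 10.66 with oxLDL. The oxLDL array was the lower of the pair in each experiment, and the groups overlapped in that oxLDL replicate 2 lay above vehicle replicate 3. The means of the vehicle and oxLDL arrays were 11.95 ± 0.23 and 11.33 ± 0.62 (SD, n = 3 each), a log2 fold-change of -0.62 with a standard error of 0.25 and a 95% interval of -1.19 to -0.06.

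For H2-Aa, the I-A alpha chain, the values were 11.88, 12.20 and 11.66 with vehicle and 11.67, 12.06 and 10.85 with oxLDL. The oxLDL arrays of experiments 1 and 2 stood within the range of the vehicle arrays and that of experiment 3 far below it. The means were 11.92 ± 0.27 and 11.52 ± 0.62 (SD, n = 3 each), and the log2 fold-change was -0.39 with a standard error of 0.26 and a 95% interval of -0.97 to 0.19.

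The I-E beta chain, H2-Eb1, had values of 11.83, 12.34 and 11.79 with vehicle and 11.50, 12.17 and 11.17 with oxLDL. Here both oxLDL replicates 1 and 3 were below every vehicle array, and oxLDL replicate 2 was above 2 of them. The means were 11.99 ± 0.30 and 11.61 ± 0.51 (SD, n = 3 each), with a log2 fold-change of -0.37, a standard error of 0.23 and a 95% interval of -0.89 to 0.14.

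The invariant chain gene Cd74 had values of 12.55, 12.99 and 12.26 with vehicle and 12.34, 12.90 and 11.91 with oxLDL. The groups overlapped over most of their range. The means were 12.60 ± 0.37 and 12.38 ± 0.50 (SD, n = 3 each), and the log2 fold-change was -0.22 with a standard error of 0.24 and a 95% interval of -0.75 to 0.32.

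Ciita, the coactivator, had values of 8.78, 9.09 and 8.70 with vehicle and 8.75, 9.29 and 8.28 with oxLDL. The highest and the lowest of its 6 values were both oxLDL arrays. The means were 8.86 ± 0.21 and 8.78 ± 0.50 (SD, n = 3 each), with a log2 fold-change of -0.08, a standard error of 0.21 and a 95% interval of -0.56 to 0.40. Its mean over the 6 arrays, 8.82, was just above the 8.74 that a transcript had to exceed to be tested. Detection above background was not examined, and for dim transcripts background narrows the differences on the log2 scale. These intervals come from a fit that did not use the pairing of the arrays. In it, the whole interval lay above a 2-fold fall for H2-Aa, H2-Eb1, Cd74 and Ciita, whereas for H2-Ab1 it reached past it. For H2-Aa the lower end, -0.97, was close to that limit. Its standard error was larger with no brightness limit (0.30) and with a variance trend (0.32), so a 2-fold fall of H2-Aa is not excluded.

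The test was limma over the 40845 transcripts above the brightness limit, and a call required both a fold-change of 2 or more in either direction and a q-value under 0.05. By this rule 0 of the 5 transcripts were called lower and 0 higher, against 2.45% and 0.686% of all tested transcripts. At an unadjusted p below 0.05, 1 of the 5 was lower (30.2% of all tested), and at a q-value below 0.05 without the fold-change threshold this was again 1 of 5 (30.8% of all tested), H2-Ab1 in both cases. Its limma p was 0.0331 and its q-value 0.0349. The limma q-values of the others were 0.110 for H2-Aa, 0.098 for H2-Eb1, 0.202 for Cd74 and 0.310 for Ciita. A Storey q-value can lie below its p-value, since it is scaled by the estimated share of unchanged transcripts, here 38.5%. The q-value of H2-Ab1 passed 0.05 in this fit but not under several alternatives: it was 0.0908 with Benjamini-Hochberg adjustment, 0.0562 after quantile normalization of the deposited values, 0.0679 with a variance trend and 0.0846 with no brightness limit. Under others it stayed below 0.05, at 0.0245 among the brightest 25% of transcripts and 0.0332 with the brightness limit applied per group. It was 0.0352 with an offset of 16 on the linear scale and 0.0457 after median centring.

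A fit with the replicate block, which takes the shared pool of cells into account, narrowed the errors without moving the estimates. With the experiment as a random effect in limma, the standard error of H2-Ab1 fell to 0.20 and that of H2-Eb1 to 0.18. This fit gave every transcript the same correlation within pairs, 0.27, estimated over all tested transcripts and not from these 5. The q-values from this paired fit were 0.00926 for H2-Ab1, 0.0385 for H2-Eb1, 0.048 for H2-Aa, 0.119 for Cd74 and 0.242 for Ciita. At a q-value below 0.05 alone it therefore placed the 3 class II chains, 3 of the 5 transcripts, among the lower ones, against 38.3% of all tested transcripts, but the unadjusted limma p was 0.0566 for H2-Eb1 and 0.0753 for H2-Aa. With the block and each transcript's own variance, no transcript of the 5 passed, at q-values of 0.0757 for H2-Ab1, 0.10 for H2-Aa, 0.0698 for H2-Eb1, 0.0693 for Cd74 and 0.231 for Ciita. For a single transcript, an exact two-sided permutation test cannot go below p = 0.10 with 3 arrays against 3, or below p = 0.25 with swaps within 3 pairs, so neither could reach 0.05.

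The position of the 5 estimates among all tested transcripts gives their size. A log2 fold-change below that of H2-Ab1 was found for 7.1% of tested transcripts, below that of H2-Aa for 16.7%, below that of H2-Eb1 for 18.1%, below that of Cd74 for 33.4% and below that of Ciita for 53.4%. The median over the 5 was -0.37, and the median over all tested transcripts was -0.10. Of the 5 transcripts, 4 were lower on the oxLDL array in all 3 experiments, which held for 46.4% of all tested transcripts. None of the 5 had all oxLDL arrays below all vehicle arrays, which 32.5% of all tested transcripts did.

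**Figure D2:**
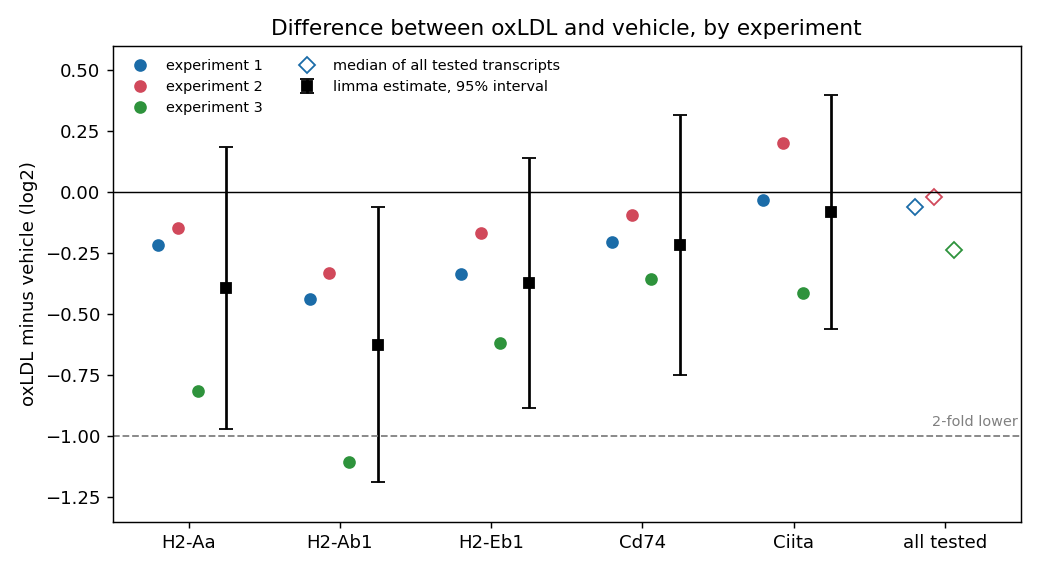
Oxidized LDL minus vehicle (log2) for each of the 5 transcripts in experiments 1, 2 and 3 (filled circles), with the limma estimate and its 95% interval (black squares), beside the median difference of all tested transcripts in the same experiments (open diamonds). H2-Ab1 has the lowest point of the 5 transcripts in each experiment, and experiment 3 gives the lowest value of every transcript and of the array-wide median.

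Within experiments, the differences between oxLDL and vehicle kept a similar order. For H2-Ab1 the difference was -0.44, -0.33 and -1.11 (log2) in experiments 1, 2 and 3, so that the beta chain of I-A passed 2-fold in experiment 3 alone. For H2-Aa it was -0.22, -0.14 and -0.81, and for H2-Eb1 -0.33, -0.17 and -0.62. Cd74 differed least among the 4 transcripts that were lower throughout, at -0.20, -0.09 and -0.35. For Ciita the difference was -0.03, 0.20 and -0.41, higher with oxLDL in experiment 2.

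Experiment 3 was also the one in which the whole array moved. The median difference of all tested transcripts was -0.06, -0.02 and -0.24 in experiments 1, 2 and 3. In experiment 3, a difference lower still was found for 3.34% of tested transcripts in the case of H2-Ab1, 7.33% for H2-Aa, 14.3% for H2-Eb1, 29.4% for Ciita and 35.6% for Cd74. Quantile normalization of the deposited values, which moved the median log2 fold-change of all tested transcripts from -0.10 to 0.02, left H2-Ab1 at -0.37, -0.32 and -0.84 in the 3 experiments and H2-Aa at -0.15, -0.13 and -0.55. H2-Eb1 then stood at -0.27, -0.14 and -0.36. Cd74 became nearly equal across experiments, at -0.11, -0.10 and -0.13. Ciita turned to 0.0029 in experiment 1, and was 0.23 and -0.31 in experiments 2 and 3. All 5 averages kept their sign after this scaling, at -0.51 for H2-Ab1, -0.28 for H2-Aa, -0.26 for H2-Eb1, -0.11 for Cd74 and -0.03 for Ciita.

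H2-Aa and H2-Ab1 make up the same molecule, and their differences could be compared within each experiment. The difference of H2-Ab1 was below that of H2-Aa by similar amounts, with H2-Aa minus H2-Ab1 at 0.22, 0.19 and 0.29 (log2) and a mean of 0.23 ± 0.05 (SD, n = 3). H2-Ab1 minus Ciita was -0.41, -0.53 and -0.69, with a mean of -0.54 ± 0.14 (SD, n = 3). Ciita was dim, and background narrows the differences of dim transcripts. How much of its distance from the other transcripts came from this was not tested, which holds for every pair with Ciita. H2-Eb1 and H2-Aa had no constant order, with H2-Aa minus H2-Eb1 at 0.12, 0.02 and -0.20. Of the 10 pairs of transcripts, 8 had the same sign in all 3 experiments. By an exact sign-flip permutation test, two-sided, each of these 8 pairs had p = 0.25, the smallest that 3 experiments allow, and 0.3125 after Benjamini-Hochberg adjustment over the 10 pairs, so no pair could pass.

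**Figure D3:**
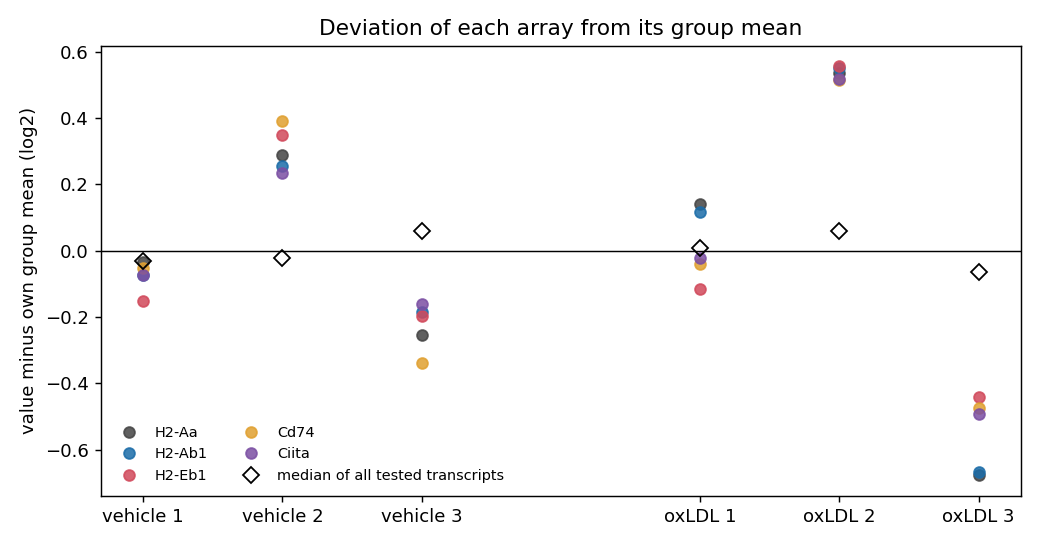
Value of each of the 5 transcripts on each array minus its own group mean (log2), for vehicle arrays 1 to 3 and oxLDL arrays 1 to 3, with the median of all tested transcripts as open diamonds. The 5 transcripts lie together, above their group means in experiment 2 and below them in experiment 3, while the array-wide median stays within 0.07 of 0.

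The variation between experiments was shared by all 5 transcripts. On vehicle array 2 they lay above their own group means by 0.23 (Ciita) to 0.39 (Cd74) on the log2 scale, and on oxLDL array 2 by 0.52 to 0.56. On vehicle array 3 they lay between -0.34 and -0.16 from their group means, and on oxLDL array 3 between -0.68 and -0.44. The medians of all tested transcripts were -0.02 and 0.06 on the vehicle and oxLDL arrays of experiment 2, and 0.06 and -0.07 on those of experiment 3. On the oxLDL arrays of experiments 2 and 3 the 5 transcripts and the array-wide median deviated in the same direction, the 5 transcripts by far more. On the vehicle arrays of these experiments the array-wide median deviated in the opposite direction to the 5 transcripts. All 5 transcripts ran from experiment 2 through experiment 1 to experiment 3 in falling order in both groups, an order that 8.18% of all tested transcripts had. This order was looked for after the values had been seen.

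The spread within groups placed these transcripts among the most variable of the array. The within-group standard deviation was 0.48 for H2-Aa, 0.46 for H2-Ab1, 0.42 for H2-Eb1, 0.44 for Cd74 and 0.39 for Ciita, whereas the median over all tested transcripts was 0.12 and the 90th percentile 0.23. This exceeded the standard deviation of 99.4% of tested transcripts for H2-Aa, 99.3% for H2-Ab1, 98.9% for H2-Eb1, 99.1% for Cd74 and 98.7% for Ciita. The oxLDL arrays spread more than the vehicle arrays for each of the 5. From the highest to the lowest array, H2-Aa spanned 1.21 with oxLDL and 0.54 with vehicle, H2-Ab1 1.21 and 0.44, H2-Eb1 1.00 and 0.55, Cd74 0.99 and 0.73, and Ciita 1.01 and 0.39.

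**Figure D4:**
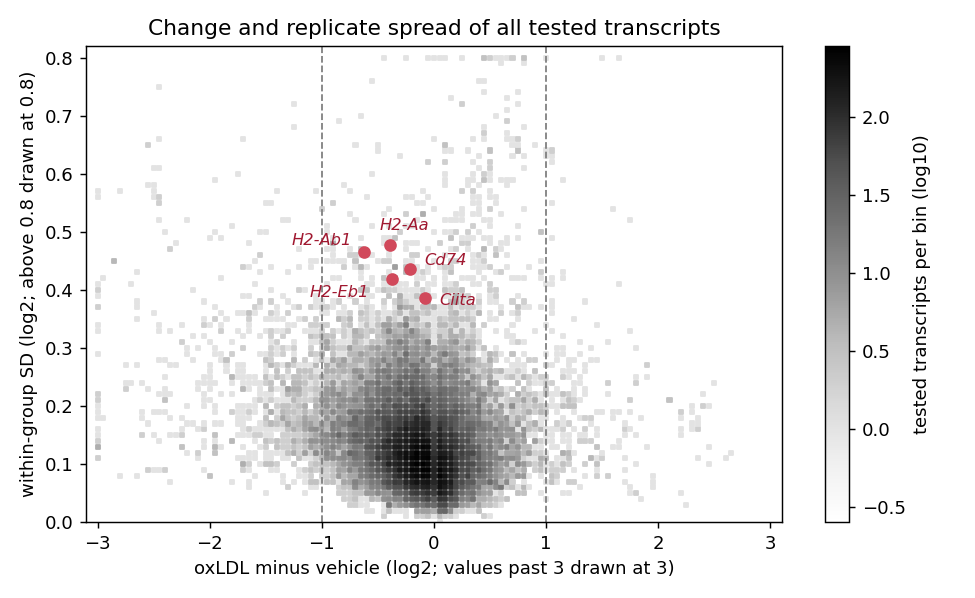
Log2 fold-change (oxLDL minus vehicle, horizontal) against within-group standard deviation (log2, vertical) of all 40845 tested transcripts, binned and shaded by the number of transcripts per bin on a log10 scale, with the 5 transcripts in red and dashed lines at a 2-fold change. The 5 transcripts lie between the dashed lines, at standard deviations of 0.39 to 0.48, above the dense part of the plot.

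Because the spread was this wide, single arrays weighed on the estimates. Without oxLDL replicate 3, the log2 fold-change was -0.29 for H2-Ab1, -0.15 for H2-Eb1 and -0.054 for H2-Aa, and it turned to 0.020 for Cd74 and 0.17 for Ciita. Without oxLDL replicate 2 it was -0.90 for H2-Ab1, -0.66 for H2-Aa, -0.65 for H2-Eb1, -0.48 for Cd74 and -0.34 for Ciita, and all 5 then had q-values below 0.05 in limma, against 36.3% of all tested transcripts that were lower at this q-value in the same fit, with Ciita the highest of the 5 at 0.0383. Each of these left unequal numbers of arrays from the experiments, so the shared variation between experiments no longer cancelled. Leaving out both arrays of experiment 3 kept the pairs whole and gave -0.38 for H2-Ab1, -0.25 for H2-Eb1, -0.18 for H2-Aa, -0.15 for Cd74 and 0.09 for Ciita. Leaving out both arrays of experiment 2 gave -0.77, -0.47, -0.52, -0.28 and -0.22 for the same transcripts in that order. The fit without experiment 2 gave every transcript 1 common variance, so its q-values were not used. With any single array left out, the q-value of H2-Ab1 in limma ranged from 0.00128 to 0.0972, the highest being that without oxLDL replicate 3, and it was below 0.05 only without oxLDL replicate 2.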

How the data were processed

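Gene expression was profiled on 6 Affymetrix Mouse Exon 1.0 ST arrays, 3 per group, with groups and replicate numbers from the sample labels. The authors' preparation consisted of quantile normalization of probe values, with background left in, and a PLIER summary (version not given in the sources used here) over CustomCDF version 15 probe sets of Ensembl release 65. The deposited values are log2 values; the base was inferred from their range, 5.95 to 14.42, and any offset is not stated. No column was left unused. Low values carry background, which compresses differences of dim transcripts.

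Transcripts whose mean exceeded 8.74, the median of all, were tested (40845), as a stand-in for the DABG detection calls of the study's methods. The fit was limma 3.58.1 in R 4.3.3 with a prior proportion of 0.1, no covariate and two-sided p-values, followed by Storey q-values, recomputed by the default procedure of the qvalue package rather than with it, after the study's methods. It was also run on simulated data with independent arrays and planted changes of more than 2-fold. That run does not bear on the pairing or on smaller changes. Figures used matplotlib 3.10.9 in Python 3.11.15. The 3 arrays per group limit the precision.

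The numbers pair the arrays, since each experiment divided 1 pool of cells. Deviations from the group means correlated at 0.51, 0.67 and 0.58 across tested transcripts for same-numbered arrays, and at -0.53 to -0.04 otherwise. Deviations within a group cancel by construction, so positive correlations for same-numbered arrays force the others to be negative on balance. The negative values are therefore no separate sign of pairing.

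The members and lists were chosen with earlier results of these data known. All 5 members are named. Other antigen presentation genes and cell type markers were not analysed here, since no identifier was paired with their symbols. No other transcript had the values of a member on all 6 arrays to 6 decimals. Alternatives were other brightness limits, Benjamini-Hochberg adjustment, a variance trend, other scalings, an offset of 16 on the linear scale, the replicate block, arrays left out and no fold-change threshold. Leaving out whole experiments, the block with each transcript's own variance, and scalings or the block combined with no fold-change threshold were added after seeing the data.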

Additional observations from a re-analysis of the deposited data

How the results depend on the processing

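None of the 5 transcripts was called under any alternative that kept the 2-fold threshold. Every estimate stayed short of 2-fold, the largest being -0.90 for H2-Ab1 without oxLDL replicate 2. The threshold alone therefore settled these calls, whatever the q-values. The fixed replicate block left all estimates and these calls as they were. It gave every transcript 1 common standard deviation of 0.124, and its q-values were not used for that reason. With no fold-change threshold, 1 of the 5 (H2-Ab1, -0.62) was called lower, and with median centring added again 1 (H2-Ab1, -0.56). With the replicate block as a random effect and no fold-change threshold, 3 were called lower (H2-Ab1 at -0.62, H2-Aa at -0.39 and H2-Eb1 at -0.37). The counts over all tested transcripts were then 12587 lower and 4369 higher with no fold-change threshold, 11175 and 7543 with median centring added, 8842 and 9955 with quantile normalization added, 15663 and 5847 with the random block added, and 6561 and 3542 with the block and each transcript's own variance. Among the brightest 25% of transcripts, where Ciita was not tested and fewer transcripts entered, 642 were called lower. With arrays or whole experiments left out, Cd74 ranged from -0.48 to 0.020, being positive without oxLDL replicate 3. Ciita ranged from -0.34 to 0.17, being positive there, at 0.09 without experiment 3 and at 0.04 without vehicle replicate 2. The median of the 5 ranged from -0.65 to -0.054. The cause of these reversals was not tested. H2-Aa, H2-Ab1 and H2-Eb1 kept their direction under every alternative run. The alternatives for other antigen presentation genes were not run. Signal over background was not assessed, so how far Ciita lay above it is not known.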

Other observations

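The mean profile of the 5 transcripts over the 6 arrays, each transcript centred on its own mean, was compared with every tested transcript. It was taken over all 5 because none was called. Pearson's r with this profile was 0.987 for H2-Aa, 0.978 for H2-Eb1, 0.972 for Cd74, 0.961 for H2-Ab1 and 0.944 for Ciita, each of which is part of the mean. Outside the 5, 712 tested transcripts (1.74%) had r above 0.95. The 2 nearest by distance were ENSMUST00000162745_at (r = 0.988) and ENSMUST00000174751_at (r = 0.994), which were not matched to a gene name. These correlations over 6 arrays include both the difference between groups and that between experiments.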
